A study of Homo sapiens with 33 samples.

Results

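The genes described here are 7 genes of smooth muscle and mesenchyme: the smooth muscle actins ACTA2 and ACTG2, the cardiac actin ACTC1, the actin-binding proteins TAGLN and CNN1, the myosin light chain MYL9 and the matrix protein POSTN. They were followed over 33 Illumina bead arrays of human embryonic stem cells under 2 inhibitor treatments. Their probes were found by annotated symbol in the non-normalized table, and the probe with the highest mean signal stood for each gene. They are 7 of 10038 genes tested, and all 7 passed the filter on dim probes. POSTN passed it through LSB3i day 15 alone. The genes were selected on their levels on these same arrays, so their levels and differences are given as a description with no test.

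Actins form the thin filaments that myosin pulls on. Vertebrates have muscle actins (ACTA1 of skeletal, ACTC1 of cardiac, ACTA2 of vascular smooth and ACTG2 of enteric smooth muscle) and the cytoplasmic actins ACTB and ACTG1, whose proteins are nearly identical. Genes of smooth muscle contraction, TAGLN and CNN1 among them, are switched on by serum response factor, SRF, which binds a DNA element called the CArG box together with cofactors of the myocardin family, and TGF-beta signalling raises many of them. Muscle actins are also expressed for a time in embryonic cells outside muscle, and neural crest cells can give rise to smooth muscle and other mesenchyme.

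H9, also named WA-09, is an established human embryonic stem cell line, here kept on mouse embryonic fibroblasts and plated on Matrigel for differentiation. The cells of all 11 groups were given LDN-193189, which blocks BMP type I receptors, and SB431542, which blocks the TGF-beta, activin and nodal receptors. LSB cells had this pair alone and were measured at day 2 and, like LSB3i cells, at days 3, 5, 7, 9 and 15. LSB3i cells also received CHIR 99021, which blocks the kinase GSK3 and so activates Wnt signalling, DAPT, which blocks Notch cleavage, and SU5402, which blocks FGF and VEGF receptors. LSB3i at day 2 was not analysed here. The labels do not give the days on which inhibitors were added or removed, and no group was grown without inhibitors. Each group has 3 arrays lettered A, B and C. The labels do not say whether they came from separate cultures, so the spread and the p-values below measure these arrays and may be technical.

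Per array the mean signal lay between 298 and 872, and 9320 to 13743 of 48803 probes were detected (detection p under 0.01). Array C of LSB day 7 was the dimmest, and its group had the highest residual SD of the 11 (0.813 on the log2 scale). The A arrays of LSB3i days 5, 7 and 9 stood apart from their groups. Their mean correlations with B and C of their own group were 0.959, 0.958 and 0.970, and those with B and C of the preceding LSB3i time point were 0.989, 0.989 and 0.986. Array A of LSB3i day 3 correlated at 0.974 with LSB day 3 and at 0.961 with its own B and C. All arrays keep their labelled group, and some of the differences at days 3 to 9 are also given without the A arrays of LSB3i.

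The RNA came from whole cultures, so fewer cells of a type and less RNA per cell cannot be told apart. Markers of other cells that express muscle actins or mesenchyme genes were checked beside the 7 genes. Of 19 cardiac and skeletal muscle markers on the array, 18 were detected on no array of LSB3i day 15, and MYH6, MYH7, MYL2, NKX2-5, MYOG, MYF5 and CKM were detected on no array of any group. Of 12 endothelial and pericyte markers, 2 were detected on all 3 arrays of LSB3i day 15, and CDH5 was detected in no group. Neural crest markers summed to between 16396 and 20185 (linear normalized intensity) at LSB3i day 15, with 9 of 12 detected on all 3 arrays, against 3451 to 4352 at LSB day 15. All 12 neuron markers were detected on all 3 arrays of LSB3i day 15, with a sum of 176515 to 178400 against 7390 to 8131 in LSB. The cultures at day 15 of LSB3i therefore carried neuron and neural crest markers beside the muscle actins, and the part of these cells in the values below was not tested.

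Promoter windows were searched for exact matches to the CArG box close to the gene start. Windows from 250 bases before to 50 bases after the gene start were taken from RefSeq, build GRCh38.p14, for 5 of the 7 genes. TAGLN and MYL9 had no window. ACTG2, ACTC1 and POSTN are printed 5′ to 3′ along the gene's own strand because their levels separated the 2 treatments most widely at day 15. Capitals mark matches to the CArG box and to TATAAA on either strand. ACTG2 lies on the plus strand at chr2:73892758-73893057. ACTC1 lies on the minus strand at chr15:34795500-34795799, the first of 3 windows annotated to it. POSTN lies on the minus strand at chr13:37598719-37599018.
ACTG2: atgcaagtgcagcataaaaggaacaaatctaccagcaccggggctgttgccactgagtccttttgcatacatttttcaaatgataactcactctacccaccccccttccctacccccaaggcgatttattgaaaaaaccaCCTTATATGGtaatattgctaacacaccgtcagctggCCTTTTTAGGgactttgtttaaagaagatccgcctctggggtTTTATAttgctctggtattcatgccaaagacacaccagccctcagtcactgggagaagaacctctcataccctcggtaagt
ACTC1: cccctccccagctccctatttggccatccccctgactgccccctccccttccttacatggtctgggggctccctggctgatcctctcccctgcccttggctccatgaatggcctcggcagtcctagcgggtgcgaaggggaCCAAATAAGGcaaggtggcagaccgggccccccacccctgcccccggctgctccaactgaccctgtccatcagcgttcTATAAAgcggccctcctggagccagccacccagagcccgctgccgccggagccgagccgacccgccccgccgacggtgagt
POSTN: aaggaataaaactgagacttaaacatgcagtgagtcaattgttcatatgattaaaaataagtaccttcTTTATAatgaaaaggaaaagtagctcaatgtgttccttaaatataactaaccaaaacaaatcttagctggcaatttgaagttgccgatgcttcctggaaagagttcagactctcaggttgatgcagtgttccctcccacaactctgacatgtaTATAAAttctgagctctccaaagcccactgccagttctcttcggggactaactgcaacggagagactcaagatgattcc
The ACTG2 window held 2 CArG boxes, which begin 110 and 73 bases before the gene start, and a TATAAA match on the other strand 31 bases before it. The ACTC1 window held 1 CArG box 109 bases before the start and TATAAA 31 bases before it. The POSTN window held TATAAA matches 29 and 182 bases before the start, the second on the other strand, and no CArG box. Both motifs were searched on both strands, with no mismatch allowed, and no match overlapped another. A CArG box was found in 454 of 35116 windows of the same length (1.29%) and TATAAA in 4049 (11.5%). The 2 windows of ACTA2 and the 1 of CNN1 held no exact match to either motif. Near matches were not counted, and the second ACTA2 window holds ccctatatgg and ccttgtttgg, which a search with no mismatch passes over. The search therefore does not show whether ACTA2 or CNN1 lacks a CArG box. Of the other actins, ACTA1 (97 bases before the start) and ACTG1 (94 bases) had a CArG box. No window of ACTB is reported here.

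ACTA2, the actin of vascular smooth muscle and a marker of myofibroblasts, was low at days 2 and 3 and high from day 7 on under both treatments. Under LSB its log2 normalized intensity on arrays A, B and C was 8.57, 8.74 and 8.97 at day 2, 8.61, 8.99 and 9.03 at day 3 and 10.72, 10.76 and 10.76 at day 5. At days 7, 9 and 15 of LSB, ACTA2 read 12.44, 12.34 and 12.71, then 12.23, 11.64 and 11.74, then 11.81, 11.53 and 11.76. Days 2 and 3 overlapped, day 5 lay above both, and every array of days 7 to 15 lay above day 5. Under LSB3i, ACTA2 read 9.02, 8.97 and 8.99 at day 3, 9.00, 12.99 and 13.22 at day 5 and 13.02, 13.82 and 13.74 at day 7. The values were 13.45, 13.11 and 13.21 at day 9 and 12.23, 12.19 and 12.16 at day 15. Array A of LSB3i day 5 matched the day 3 arrays, while B and C of the same day were close to day 7. ACTA2 was detected on all 33 arrays.

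From day 3 to day 15, ACTA2 was higher by 2.82 ± 0.57 under LSB and by 3.20 ± 0.57 under LSB3i (log2 difference ± standard error, 3 arrays per group throughout). The 2 changes share no arrays. LSB3i minus LSB was 0.11 ± 0.57 at day 3, 0.99 at day 5, 1.03 at day 7, 1.39 at day 9 and 0.49 at day 15. The groups overlapped at days 3 and 5 and did not overlap at days 7, 9 and 15. Without array A, the day 5 difference of ACTA2 was 2.36. In the order of the 11 group means, LSB3i days 7 (13.53) and 9 (13.26) were highest and overlapped, and LSB day 2 (8.76), LSB day 3 (8.88) and LSB3i day 3 (8.99) were lowest and overlapped as neighbours.

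ACTC1, the actin of heart muscle, had a different course under each treatment and ended high under LSB and low under LSB3i. Under LSB it read 11.07, 10.62 and 10.14 on arrays A, B and C of day 2, 8.59, 8.68 and 8.87 at day 3 and 7.87, 7.52 and 8.06 at day 5. At LSB day 7, ACTC1 read 7.23, 7.02 and 5.75 and was detected on array A alone, and it read 10.21, 10.39 and 10.54 at day 9 and 12.36, 11.34 and 12.51 at day 15. Day 7 was thus the lowest point of LSB, below every array of the other days, and day 15 the highest. Under LSB3i, ACTC1 read 9.23, 8.98 and 8.63 at day 3, 8.57, 9.99 and 9.89 at day 5 and 9.97, 12.62 and 12.55 at day 7. It read 12.04, 13.50 and 13.84 at day 9 and 7.44, 7.83 and 6.71 at day 15, where array C was not detected. At days 5, 7 and 9 array A was the lowest of its group, and the A array of day 7 matched B and C of day 5.

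LSB3i minus LSB for ACTC1 was 0.23 ± 0.55 at day 3, 1.66 ± 0.55 at day 5, 5.04 ± 0.55 at day 7 and 2.75 ± 0.55 at day 9. At day 15 it was -4.74 ± 0.55. The groups overlapped at day 3 and lay apart at each later day, with LSB3i above at days 5, 7 and 9 and below at day 15. Without the A arrays the differences at days 5, 7 and 9 were 2.12, 5.91 and 3.29. From day 3 to day 15, ACTC1 differed by 3.36 ± 0.55 under LSB and by -1.62 ± 0.55 under LSB3i. On the arrays of LSB3i day 9, where ACTC1 had its highest mean (13.13), 2 of 19 cardiac and skeletal muscle markers were detected on all 3 arrays and 14 on none, and 11 of 12 neural crest markers were detected on all 3. The part of either cell type in ACTC1 was not tested.

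ACTG2, the actin of enteric smooth muscle, was high in 2 groups only, LSB day 2 and LSB3i day 15. Under LSB it read 11.44, 11.14 and 10.98 on arrays A, B and C of day 2, 8.59, 8.97 and 8.59 at day 3 and 7.33, 7.31 and 6.48 at day 5, where array C was not detected. At days 7, 9 and 15 of LSB, the values ran from 5.14 to 7.12 and ACTG2 was detected on no array. The gene thus went from a high reading to background under LSB, and days 2, 3 and 5 did not overlap each other. Under LSB3i, ACTG2 read 10.01, 8.72 and 8.22 at day 3, 8.53, 8.00 and 8.13 at day 5 and 8.34, 8.44 and 8.63 at day 7. It read 8.41, 7.26 and 6.68 at day 9 and 11.86, 11.60 and 10.90 at day 15. All LSB3i arrays detected ACTG2, and day 15 lay above the other LSB3i days on every array.

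At day 15, ACTG2 was at least 24.9-fold higher in LSB3i than in LSB, and at days 7 and 9 at least 2.15-fold and at least 1.87-fold higher. A fold written as "at least" sets a group with no detected array at the higher of each array's lowest detected signal and the probe's own signal. It is a bound within the main processing only. With the authors' processed values, the log2 differences of ACTG2 were 3.78 at day 15, 0.73 at day 9 and -1.41 from day 3 to day 15 of LSB. At day 5 the difference was 1.18 ± 0.47, and at day 3 it was 0.26 ± 0.47 with overlapping groups. Without the A arrays of LSB3i, the log2 differences of ACTG2 were -0.25 at day 3, 1.02 at day 5, 2.34 at day 7 and 1.16 at day 9. From day 3 to day 15, ACTG2 was at least 3.76-fold lower under LSB and higher by 2.47 ± 0.47 under LSB3i. Against LSB day 2, LSB day 15 was at least 20.8-fold lower. The probe sequences of the actins were not in the files used here, so how far 1 actin's RNA adds to the signal of another was not tested. The differences of ACTC1 and ACTG2 from day 3 to day 15 had opposite signs under each treatment.

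ACTA1, the skeletal muscle actin, is not one of the 7 and was tested. It read 12.21, 12.29 and 12.12 at LSB day 2, 11.08, 11.56 and 11.65 at LSB3i day 9 and 5.57, 5.88 and 5.59 at LSB3i day 15, where no array detected it. In LSB3i against LSB, ACTA1 rose by 1.35 ± 0.36 at day 7 (limma adjusted p = 0.0049) and by 1.04 ± 0.36 at day 9 (adjusted p = 0.029, over 0.05 or under 1 log2 unit in 6 of 16 alternatives). At day 15 it was at least 5.21-fold lower in LSB3i (limma adjusted p = 6.7e-09). ACTC1 and ACTA1 were thus both low at LSB3i day 15, where ACTA2 and ACTG2 were not. The cytoplasmic actins ACTB (13.88 to 15.21 over all arrays) and ACTG1 (14.77 to 15.58) passed the test in none of the 8 comparisons.

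**Figure D1:**
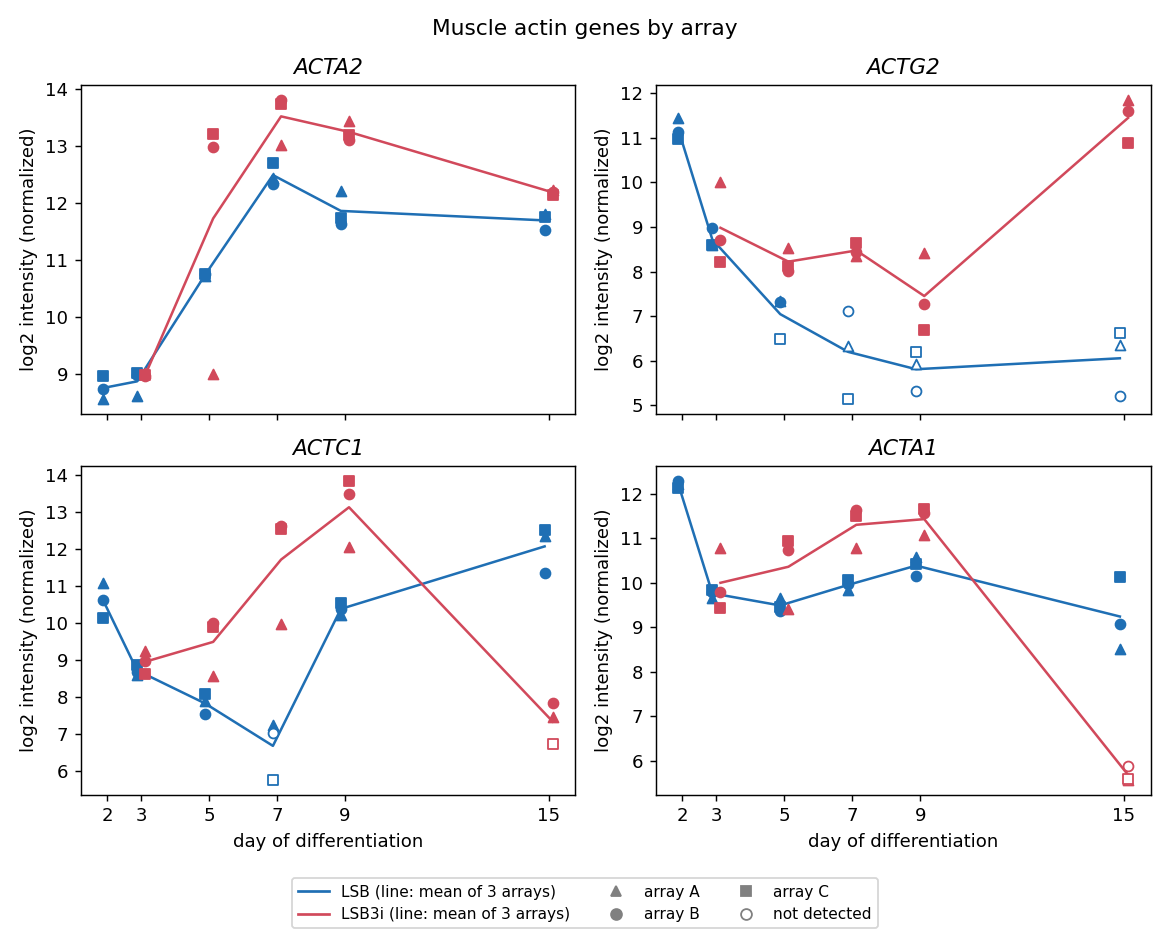
Log2 normalized intensity of ACTA2, ACTG2, ACTC1 and ACTA1 (vertical axes) by day of differentiation (horizontal axes), LSB in blue and LSB3i in red. Each symbol is 1 array (triangle A, circle B, square C), open where not detected, and lines join the means of 3 arrays. ACTC1 and ACTA1 drop to low readings at LSB3i day 15, where ACTG2 reads 10.90 to 11.86.

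TAGLN, or transgelin, an actin-binding protein of smooth muscle and an early marker of its differentiation, was detected on all 33 arrays. Under LSB it read 13.21, 13.34 and 13.30 on arrays A, B and C of day 2, 11.37, 11.64 and 11.65 at day 3 and 11.76, 11.69 and 11.49 at day 5. At days 7, 9 and 15 of LSB, TAGLN read 12.27, 12.28 and 11.24, then 13.67, 13.70 and 13.74, then 13.25, 12.99 and 13.95. Day 3 lay below day 2 on every array, day 9 lay above day 2, and day 15 overlapped it. Under LSB3i, TAGLN read 12.51, 11.25 and 10.92 at day 3, 11.17, 12.87 and 13.12 at day 5 and 13.19, 14.29 and 14.29 at day 7. It read 13.96, 14.24 and 13.88 at day 9 and 14.37, 14.47 and 14.49 at day 15. LSB3i day 15 held the highest mean of the 11 groups (14.44) and did not overlap the next, LSB3i day 9.

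LSB3i minus LSB for TAGLN was 0.00 ± 0.40 at day 3, 0.74 ± 0.40 at day 5, 1.99 ± 0.40 at day 7, 0.32 ± 0.40 at day 9 and 1.04 ± 0.40 at day 15. The groups overlapped at days 3 and 5 and lay apart at days 7, 9 and 15. Without the A arrays of LSB3i, the day 5 and day 7 differences were 1.35 and 2.36. From day 3 to day 15, TAGLN was higher by 1.84 ± 0.40 under LSB and by 2.88 ± 0.40 under LSB3i. A second TAGLN probe, detected on 32 arrays, correlated with the first at 0.943 and gave 3.40 at day 7 and 0.55 at day 15. One more TAGLN probe was detected on no array.

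CNN1, or calponin, which binds actin and slows the myosin motor in smooth muscle, was dim and was detected on 17 of 33 arrays. Its highest group was LSB day 2, at 8.21, 8.26 and 8.87 on arrays A, B and C. LSB3i day 15 followed at 8.33, 7.24 and 8.21, and LSB day 9 at 7.35, 7.94 and 7.64. These 3 groups overlapped as neighbours and were the 3 groups with CNN1 detected on every array. At LSB day 7 and LSB3i day 3 no array detected CNN1, with readings of 5.04 to 5.89 and of 6.18 to 6.52. At day 9, CNN1 differed by -1.24 ± 0.37 in LSB3i against LSB with groups apart, and by -0.57 with the authors' processed values. At day 15 it differed by 0.90 ± 0.37 with overlapping groups, and from day 3 to day 15 of LSB3i it was at least 2.09-fold higher. The processed values took the log2 difference of that change from 1.63 to 0.79. At day 7 CNN1 was detected on 1 LSB3i array and on no LSB array, and its difference went from 1.27 to 0.04 when arrays were scaled to a common median in place of quantile normalization.

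MYL9, the regulatory light chain of smooth muscle myosin, moved least among the 6 genes detected under both treatments, with group means between 7.98 and 9.48. It was highest at LSB day 2, at 9.35, 9.44 and 9.66 on arrays A, B and C, and was lower at LSB day 3, at 8.27, 8.42 and 8.47. LSB3i day 7 read 9.08, 9.62 and 9.51, and LSB day 7 read 8.98, 8.54 and 6.42. Array C of LSB day 7, the dimmest of the series, alone did not detect MYL9. LSB3i minus LSB at day 7 was 1.42 ± 0.39 with groups apart, and 0.65 without that array. The groups overlapped at days 3, 5, 9 and 15, with a difference of 0.43 ± 0.39 at day 15. A second MYL9 probe, detected on 23 arrays, correlated with the first at 0.589 and gave 3.02 at day 7 and 0.39 at day 15. With both probes averaged, the day 7 difference of MYL9 was 2.22.

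POSTN, or periostin, a matrix protein secreted by mesenchymal and perichondrial cells and fibroblasts, was detected on 4 of 33 arrays. At LSB3i day 15 it read 12.01, 12.78 and 12.67 on arrays A, B and C. At LSB3i day 9 it read 5.06, 5.72 and 6.68, and array C alone detected it. On all other arrays POSTN was undetected, at 4.83 to 5.51. POSTN was thus at background under LSB throughout and at a high level in 1 group of the 11. At day 15 it was at least 51.1-fold higher in LSB3i than in LSB, and at least 49.2-fold higher than at LSB3i day 3. With the authors' processed values these 2 differences of POSTN were smaller, at 5.17 and 5.28 on the log2 scale. A second POSTN probe, detected on 3 arrays, correlated with the first at 0.977 and was higher by 5.11 at day 15.

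LSB day 2 was the earliest group, and ACTG2, CNN1, ACTC1, TAGLN and MYL9 were lower at LSB day 3 than at day 2 on every array. Their log2 differences were -2.47 (ACTG2), -1.99 (CNN1), -1.90 (ACTC1), -1.73 (TAGLN) and -1.10 (MYL9). ACTA2 (0.12) and POSTN (0.09, at background) overlapped between these days. Day 2 was in none of the 8 comparisons tested, so no share of all genes stands beside these differences. Whether other genes fell alike was not tested. At LSB day 15, ACTC1 and ACTA2 lay above their own day 2 readings, TAGLN overlapped them (0.11), and ACTG2, CNN1 (-1.41) and MYL9 (-1.06) lay below.

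**Figure D2:**
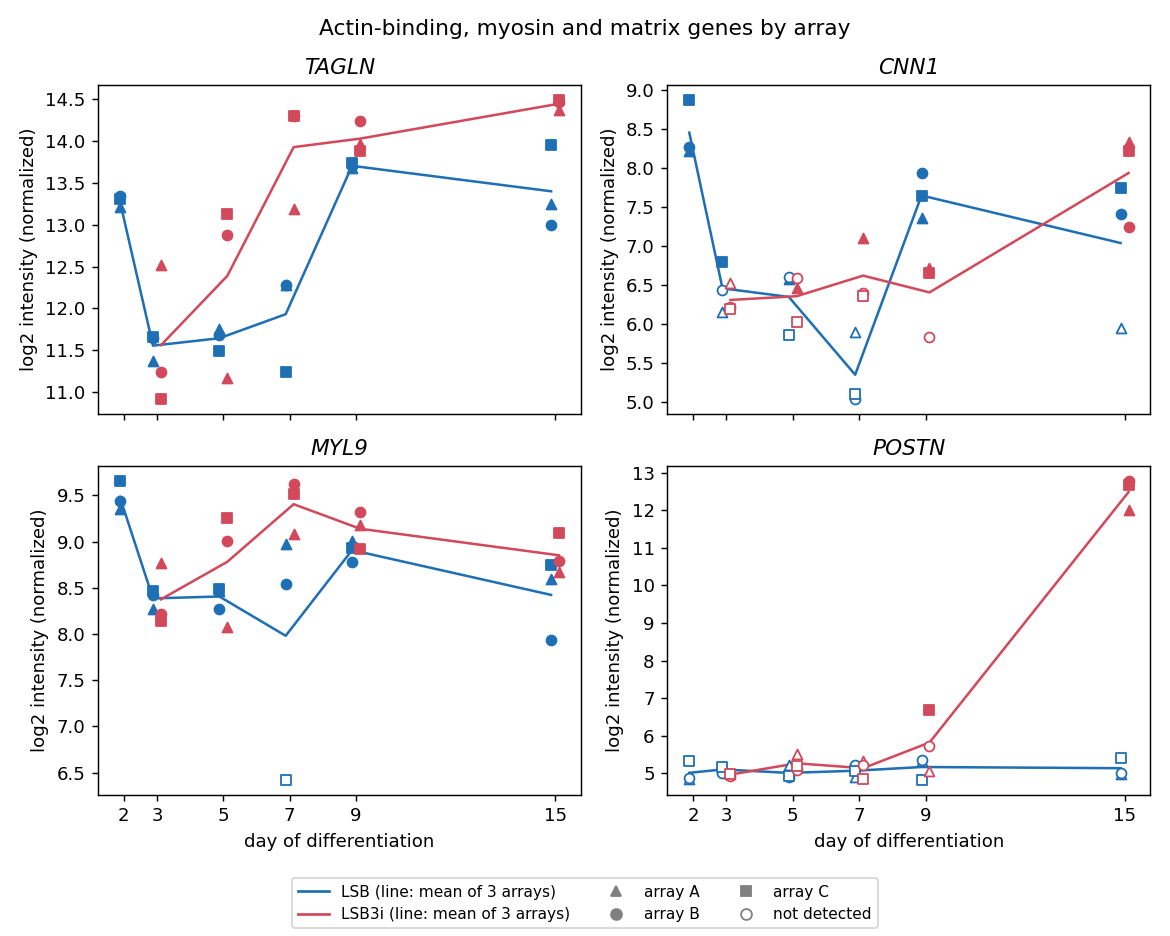
Log2 normalized intensity of TAGLN, CNN1, MYL9 and POSTN (vertical axes) by day of differentiation (horizontal axes), LSB in blue and LSB3i in red. Each symbol is 1 array (triangle A, circle B, square C), open where not detected, and lines join the means of 3 arrays. POSTN reads 12.01 to 12.78 at LSB3i day 15 and stays at background under LSB.

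The other genes of smooth muscle and mesenchyme were read from 3 lists: contractile and adhesion proteins (23 of 29 genes tested), regulators of the programme with some of their targets (12 of 23) and matrix and mesenchyme genes (30 of 46). Their 65 genes were tested with limma across all 10038 genes. Calls needed an adjusted p (Benjamini-Hochberg) under 0.05 and a log2 difference of at least 1 either way. At day 3 none of the 65 was called (0 higher and 4 lower at an unadjusted p under 0.05), against 0.0498% of all genes called higher and 0.209% called lower in LSB3i. Of the 7 genes, 6 had overlapping groups at day 3, and POSTN was at background in both. At day 5, 0 of the 65 were called higher and 2 lower (2 and 5 at an unadjusted p under 0.05), against 1.1% and 2.12% of all genes. The 2 were TGFBI, a matrix protein induced by TGF-beta (-1.90 ± 0.38, adjusted p = 0.0026), and MYH9, a non-muscle myosin (-1.18 ± 0.28, adjusted p = 0.011), which was -0.89 without the A arrays. Without those arrays 5 of the 65 were called.

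At day 7, LSB3i lay above LSB on every array for ACTA2, ACTG2, ACTC1, TAGLN, CNN1 and MYL9. POSTN overlapped, at background in both. All 3 LSB arrays of that day were dimmer (mean signal 298 to 496) than those of LSB3i (688 to 825). By the test, 12.8% of all genes were called higher and 6.51% lower. Median scaling in place of quantile normalization took the share of calls that were higher from 66.3% to 32.6%. Here and below, lying apart on every array is a different measure from a call. Its share over all genes is not given, so the 2 cannot be set side by side. Of the other 65 genes, 15 were called higher and 2 lower. CSRP1, a LIM protein of smooth muscle, was at least 2.53-fold higher (adjusted p = 1.8e-05) and SRF rose by 1.16 ± 0.20 (adjusted p = 6.8e-05). The collagen gene COL1A2 rose by 2.36 ± 0.38 (adjusted p = 3.7e-05, and 0.0721 with only the day 7 groups in the fit). CDH11, a cadherin of mesenchyme (-1.69 ± 0.36, adjusted p = 0.00079), and TGFBI (-1.79 ± 0.38, adjusted p = 0.00082) fell.

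Much of the day 7 shift in contractile genes rested on 1 array. VCL, or vinculin, which anchors actin at adhesion sites, differed by 2.89 ± 0.91 (adjusted p = 0.016), and by 0.62 without array C of LSB day 7. The same array took ACTN1, an actin crosslinker, from 1.98 to 0.40, TPM4, a tropomyosin, from 1.66 to 0.35 and LPP from 1.09 to 0.25. Without it 10 of the 65 were called, and with only the day 7 groups in the fit 5 were called. Of the 17 calls, 4 (CSRP1, SRF, CDH11 and TGFBI) held in every alternative. The median difference of the 65 genes was 0.29 against 0.09 for all genes, and -0.03 against -0.21 with readings at background set to each array's lowest detected signal.

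At day 9, ACTA2, ACTG2, ACTC1 and TAGLN lay above LSB on every array in LSB3i and CNN1 below. By the test, 8.32% of all genes were called higher and 8.26% lower. The other genes split by list. No contractile gene was called higher and 3 of 23 fell, namely MYLK, the kinase that phosphorylates the myosin light chain (at least 1.93-fold lower, adjusted p = 0.0028, and under 1 log2 unit with the authors' processed values), CSRP2 (-1.46 ± 0.35, adjusted p = 0.0025) and TPM1, a tropomyosin (-1.09 ± 0.18, adjusted p = 4.1e-05). Of 30 matrix and mesenchyme genes, 12 rose and 5 fell. COL3A1 was at least 9.35-fold higher (adjusted p = 0.0001), BGN, or biglycan, rose by 3.78 ± 0.47 (adjusted p = 8.8e-07), and DCN, or decorin, was at least 3.23-fold higher (adjusted p = 4.3e-08). CDH11 (-2.61 ± 0.36, adjusted p = 4.1e-06) and THY1 (-1.40 ± 0.18, adjusted p = 1.5e-06) fell. Among regulators, CCN1, a target of the YAP and SRF pathways, fell by 1.81 on the log2 scale (SE 0.31, adjusted p = 7.2e-05) and HAND1 was at least 1.72-fold higher (adjusted p = 0.00024). In all, 13 of the 65 rose and 11 fell, and their median difference was -0.01 against 0.01 for all genes.

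At day 15, where 13.3% of all genes were called higher in LSB3i and 15.8% lower, the matrix genes moved up and the contractile genes did not follow. ACTA2, ACTG2, TAGLN and POSTN lay above LSB on every array, ACTC1 lay below, and CNN1 and MYL9 overlapped. Of 30 matrix and mesenchyme genes, 17 rose and 3 fell, with a median difference of 1.38. BGN rose by 4.42 ± 0.47 (adjusted p = 1.7e-08), COL1A2 by 3.09 ± 0.38 (adjusted p = 1.8e-07), COL3A1 by 2.81 ± 0.71 (adjusted p = 0.0021) and S100A6 by 2.58 ± 0.33 (adjusted p = 3.5e-07). CDH11 fell (-2.34 ± 0.36, adjusted p = 6e-06), DCN lay at least 1.61-fold lower (adjusted p = 2e-06). PDGFRA, a receptor of mesenchymal cells, lay at least 1.46-fold lower (adjusted p = 5.3e-05). DCN thus stood higher in LSB3i at day 9 and lower at day 15.

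Of 23 contractile genes at day 15, 2 rose and 3 fell, with a median difference of 0.08. ITGB1, an integrin chain, rose by 1.31 ± 0.14 (adjusted p = 1.6e-08) and SYNM, an intermediate filament protein of muscle, was at least 2.39-fold higher (adjusted p = 0.00023). CSRP2 fell (-2.34 ± 0.35, adjusted p = 4.7e-06). TPM1 (-1.30 ± 0.18, adjusted p = 1.1e-06) came to -0.49 when its probes were averaged, and PDLIM3 (at least 2.72-fold lower, adjusted p = 0.012) was lost in 4 of 16 alternatives. Of 12 regulators, TGFB1I1, a coactivator at adhesion sites, was at least 1.76-fold higher (adjusted p = 2.4e-05). HAND1 (at least 3.01-fold lower, adjusted p = 7e-07), TEAD4 (-1.50 ± 0.27, adjusted p = 5.5e-05) and CCN1 (-1.19 ± 0.31, adjusted p = 0.0025) were lower. Together 20 of the 65 rose and 9 fell, their median difference was 0.43 against -0.10 for all genes, and 17 of the 29 calls held in every alternative. With the authors' processed values the differences of SYNM, TGFB1I1, TEAD4, CCN1, DCN and PDGFRA fell under 1 log2 unit, and CCN1 was also -0.85 without array C of LSB3i day 15. In the same arrays all 12 neuron markers were called higher, beside 13.3% of all genes. Of 12 neural crest markers, 8 were called higher and 1, SOX9, lower (-3.23 ± 0.42, adjusted p = 5.7e-07). The part of these cells in the counts was not tested.

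**Figure D3:**
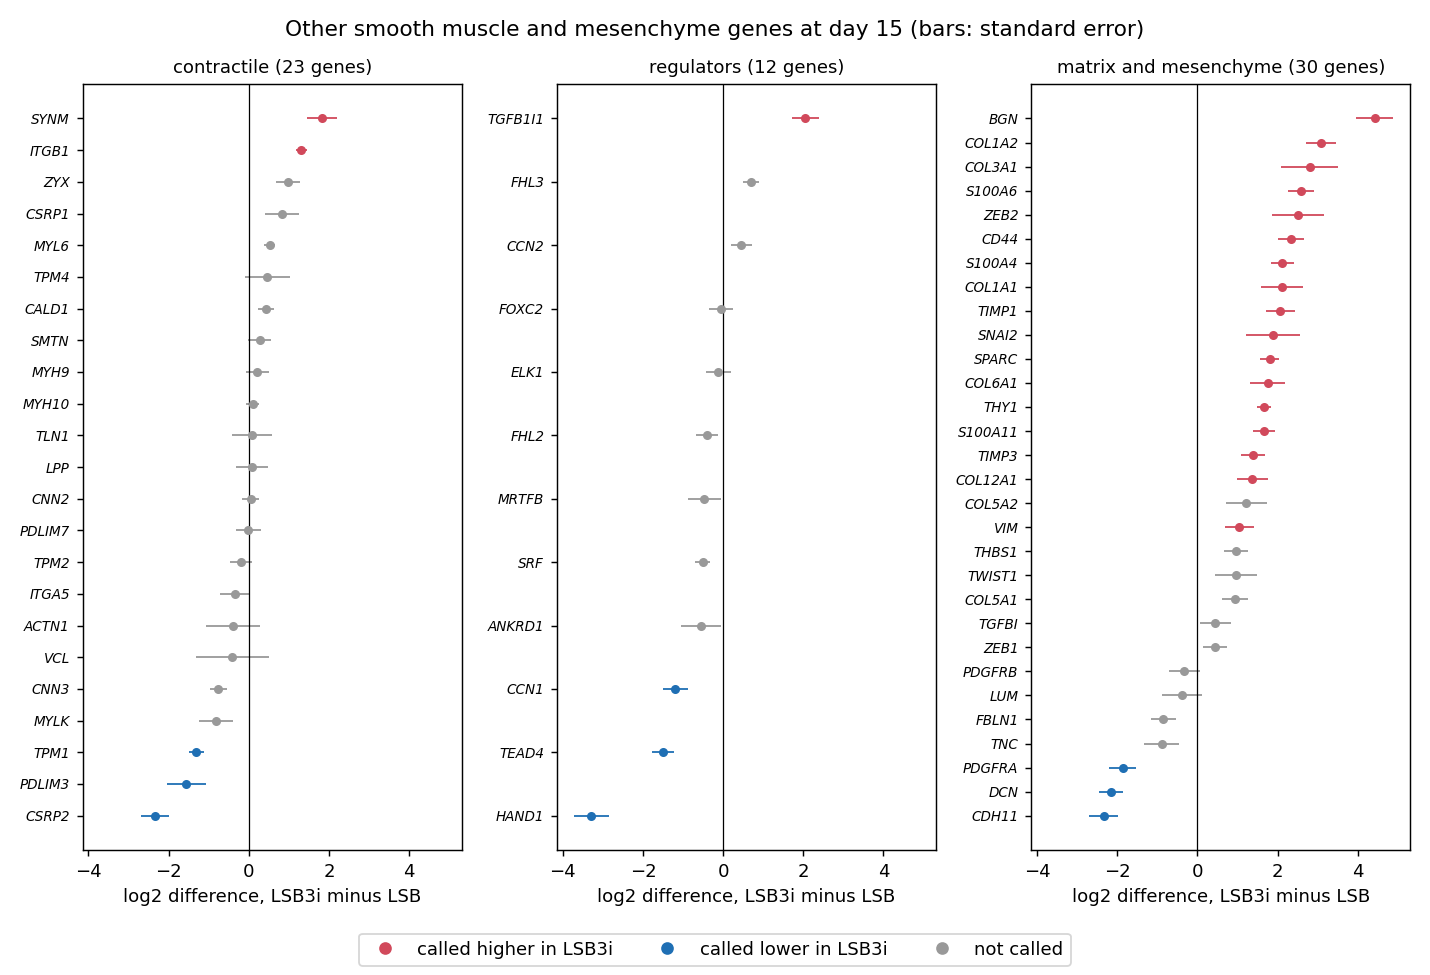
Log2 difference of LSB3i minus LSB at day 15 (horizontal axis) for 65 other smooth muscle and mesenchyme genes (vertical axis), by list, with 3 arrays per group. Points are fitted differences, bars 1 standard error, red called higher, blue called lower and grey not called. 17 of 30 matrix and mesenchyme genes and 2 of 23 contractile genes are called higher.

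From day 3 to day 15 of LSB, ACTA2, ACTC1 and TAGLN were higher on every array and ACTG2 was lower. By the test, 10.6% of all genes were called higher and 12.1% lower. Of the 65 other genes, 22 rose and 3 fell, with a median of 0.36 against -0.02 for all genes. CSRP1 was at least 10.7-fold higher (adjusted p = 1.5e-07), COL5A2 rose by 5.20 ± 0.51 (adjusted p = 1.9e-08), CDH11 by 4.36 ± 0.36 (adjusted p = 1.1e-09) and ANKRD1, a stretch-responsive target of YAP, by 3.29 ± 0.50 (adjusted p = 1.3e-05). S100A4 (-1.13 ± 0.29, adjusted p = 0.0027), TWIST1 (-1.38 ± 0.53, adjusted p = 0.04) and PDLIM3 (-1.26 ± 0.50, adjusted p = 0.046) fell. Under at least 1 alternative each of these 3 calls was lost, among them -0.99 for S100A4 and -0.91 for TWIST1 without array C of LSB day 15, and an adjusted p of 0.163 for PDLIM3 without array A of that day.

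From day 3 to day 15 of LSB3i, ACTA2, ACTG2, TAGLN, CNN1 and POSTN were higher on every array and ACTC1 was lower. By the test, 19.6% of all genes were called higher and 22.9% lower. Of the 65, 35 rose and 5 fell, with a median of 1.15 against -0.11 for all genes (0.88 and -0.01 with readings at background set to the lowest detected signal). Matrix and mesenchyme genes made up 24 of the 35. COL5A2 rose by 6.44 ± 0.51 (adjusted p = 6.1e-11), BGN by 5.09 ± 0.47 (adjusted p = 8e-10) and COL1A1 by 4.02 ± 0.52 (adjusted p = 2.6e-07). Of 23 contractile genes, 8 rose, among them CSRP1 (4.30 ± 0.42, adjusted p = 2.4e-09), ZYX, or zyxin (2.08 ± 0.29, adjusted p = 9.6e-07) and MYH9 (1.84 ± 0.28, adjusted p = 3e-06). CSRP2 fell (-2.83 ± 0.35, adjusted p = 1.5e-07), and ACTA1 was at least 8.82-fold lower (adjusted p = 1.2e-10).

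The difference between the 2 changes from day 3 was tested in the same fit, in which 13% of all genes were called higher and 13.3% lower for LSB3i minus LSB. Of the 65, 19 were higher and 8 lower, with a median of 0.44 against -0.09 for all genes. The 19 comprised 15 matrix and mesenchyme genes, 3 contractile genes and 1 regulator. BGN differed by 4.88 ± 0.66 (adjusted p = 2.6e-06) and COL1A2 by 3.13 ± 0.53 (adjusted p = 5.4e-05). CSRP2 differed by -2.47 ± 0.50 (adjusted p = 0.0004) and CDH11 by -2.44 ± 0.51 (adjusted p = 0.00054). COL1A1 (2.24 ± 0.73, adjusted p = 0.021), COL6A1 (1.97 ± 0.63, adjusted p = 0.018) and COL12A1 (1.59 ± 0.54, adjusted p = 0.025) also passed. The other collagens COL3A1 (2.46 ± 1.01, adjusted p = 0.063), COL5A1 (adjusted p = 0.092) and COL5A2 (1.24 ± 0.72, adjusted p = 0.2) did not.

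TGF-beta and BMP response genes bear on the 2 receptor inhibitors that both treatments contain, and 7 of a list of 14 were tested. At day 15, 2 rose and 4 fell in LSB3i against LSB, beside 13.3% of all genes called higher and 15.8% called lower. TGFBR2, the type II receptor of TGF-beta, rose by 3.71 ± 0.31 (adjusted p = 1.8e-10) and PMEPA1, a TGF-beta target, by 2.82 ± 0.35 (adjusted p = 2.5e-07). The BMP targets ID1 (-3.61 ± 0.59, adjusted p = 1.4e-05) and SMAD6 (-2.12 ± 0.35, adjusted p = 1.6e-05) fell. ID2 (-1.35 ± 0.31, adjusted p = 0.00091) and ID3 (-1.04 ± 0.26, adjusted p = 0.0016) fell too. At day 9, ID2 (1.59 ± 0.31, adjusted p = 0.00035), ID3 (1.74 ± 0.26, adjusted p = 1.1e-05) and BAMBI (1.75 ± 0.65, adjusted p = 0.044) rose. None of the 7 fell at day 9, beside 8.32% of all genes called higher and 8.26% called lower. At day 7, beside 12.8% and 6.51%, 2 of the 7 rose and 1 fell, and the directions of ID1, ID2 and TGFBR2 were opposite to day 15. ID1 rose by 1.57 ± 0.59 (adjusted p = 0.041, and 0.225 without array C of LSB day 7), ID2 rose by 1.86 ± 0.31 (adjusted p = 6.7e-05) and TGFBR2 fell (-1.20 ± 0.31, adjusted p = 0.0037, and -0.41 with its probes averaged).

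The 7 genes did not share 1 course. Over the 33 arrays the Pearson correlation of log2 intensity between pairs ran from -0.35 (ACTA2 with ACTG2) to 0.67 (TAGLN with MYL9), and ACTC1 with POSTN gave -0.30. The points share treatments and days, so these values describe the courses and carry no test. The tested gene whose course was most like that of ACTA2 was SULF1, a heparan sulfate sulfatase (r = 0.94), followed by NR2F1 (0.93) and PDLIM7 (0.91). For TAGLN they were ANXA1 (0.92), CSRP1 (0.91) and JUN (0.89). The course of POSTN was most like those of DLX1, ELAVL4 and SCN3B (0.98 each), genes known from neurons or neural development. POSTN was high in LSB3i day 15 alone, so this likeness rests on that 1 group. ACTG2 was most like FAM162B (0.89), UGT8 (0.88) and NAP1L3 (0.88), and ACTC1 most like SLC39A8 (0.84), INHBE (0.82) and GABRP (0.81). The closest courses to CNN1 (SRXN1, 0.75) and MYL9 (CSNK2B, 0.80) were less alike.

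**Figure D4:**
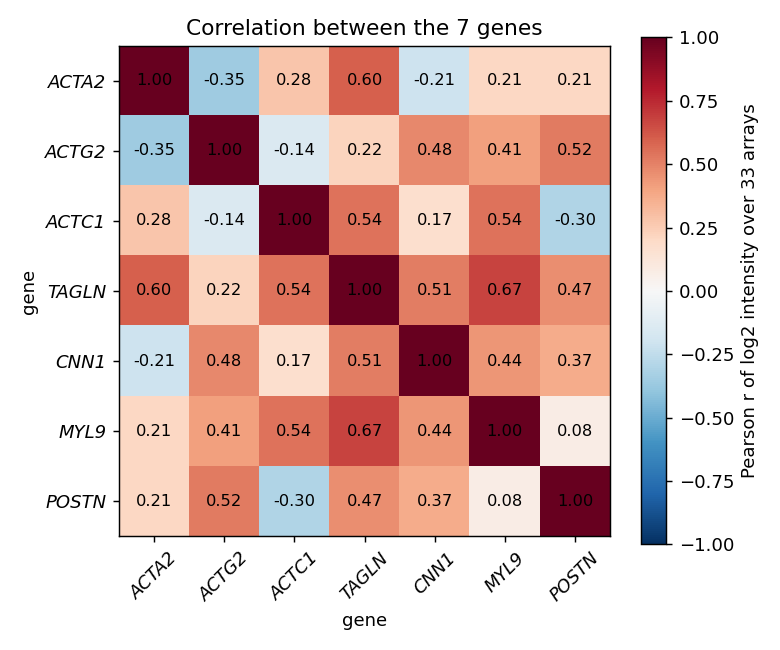
Pearson correlation of log2 normalized intensity over 33 arrays for each pair of the 7 genes (both axes), with the value in each cell and colour from blue (-1) to red (1). ACTA2 with ACTG2 is lowest at -0.35 and TAGLN with MYL9 highest at 0.67.

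The CArG box was also searched in the windows of the 3 lists. It was found for 7 of 27 contractile genes with a window (ACTN1, CNN2, FLNA, LPP, MYLK, SMTN and TPM4), for 4 of 15 regulators and for 1 of 31 matrix and mesenchyme genes. The share over all windows was 1.29%. That share counts windows, and a gene can have more than 1, so these counts cannot be set against it. At day 15 none of these contractile genes was called in LSB3i against LSB, and FLNA was not tested. At day 7, SMTN, TPM4, ACTN1 and LPP were called higher, beside 12.8% of all genes. The last 3 of these fell under 1 log2 unit without array C of LSB day 7. SMTN was not among the 4 of 17 day 7 calls that held in every alternative. At day 9, MYLK was called lower. The 4 regulators were FHL1, FHL2, SRF and TGFB1I1. SRF was called higher at day 7 and TGFB1I1 at day 15. A match is a description of the window and not of binding.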

How the data were processed

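Total RNA of 33 samples was measured on Illumina bead arrays, and groups were taken from the labels. Per the file headers, the deposited non-normalized table holds a linear bead intensity and a detection p-value for each probe and array. The authors' processed table holds a linear intensity whose probe IDs did not match those values (r of 0.227 to 0.290 by ID). Its probes were matched by their ranks over arrays (48780 of 48803, r at least 0.983) and served as an alternative only. The submitters' processing notes name GenomeStudio. Its version was not given in the sources used.

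Background was corrected with limma 3.58.1 in R 4.3.3 (normexp with detection p-values, offset 16), followed by quantile normalization and log2. A probe had to be detected (p under 0.01) on every array of 1 group or more, which 14651 probes were, and each gene was read from its brightest probe. Symbols came from the platform annotation (28098 probes with 1 symbol, 13 with several, 20692 unlisted). One limma model (lmFit, eBayes) had 11 group means and 22 residual degrees of freedom, with p-values adjusted over 10038 genes. A difference of 2 groups had a median standard error of 0.281, which the 3 arrays per group limit. The fit was tested on simulated data.

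The 7 genes, the lists and the comparisons were chosen with earlier results of these data known. The text names the 7 genes, up to 4 called genes at each end of a list, the other actins and the 3 genes most correlated with each of the 7, and prefers calls that held under the alternatives. Same-letter arrays of different groups did not deviate together: their deviations correlated at 0.00384 on average, those of different letters at -0.00152, and all 3 letters exceeded 0.1 in 2 of 55 pairs of groups. No replicate block was therefore fitted in the model above.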

Additional observations from a re-analysis of the deposited data

Results flagged for a closer look

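The change from day 3 to day 15 ran in opposite directions under the 2 treatments for ACTG2 and ACTC1, with every array of one day apart from the other. LSB3i minus LSB was 5.14 for ACTG2, with LSB day 15 at background, and -4.98 for ACTC1. These differences were not tested, since both genes were chosen from these arrays.

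The same difference of changes was tested for other genes and passed (adjusted p under 0.05, at least 1 log2 unit). Among contractile genes it was -2.47 for CSRP2, -1.21 for TPM1 (-0.14 with its probes averaged), 1.33 for ITGB1 and 1.56 for ZYX. Among regulators it was -1.77 for CCN1 and -1.55 for TEAD4. Among matrix and mesenchyme genes it was -2.44 for CDH11, 2.42 for S100A11, 3.13 for COL1A2, 4.88 for BGN and 2.72 for ZEB2, which was 1.46 without array A of LSB3i day 3 (adjusted p = 0.0865). ACTA1 gave -3.80, with LSB3i day 15 at background. Among TGF-beta and BMP response genes it was -1.82 for SMAD6, -1.72 for ID2 and 4.11 for TGFBR2. No cause of these differences was tested.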

How the results depend on the processing

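For the 7 genes, 882 of 930 values under an alternative moved by less than the spread between arrays, 48 moved by more (18 with the authors' processed values, 13 with offset 50) and 4 of these 48 also changed sign. Those were MYL9 with its probes averaged, from day 3 to day 15 of LSB (0.04 to -0.35) and of LSB3i (0.48 to -0.14), and POSTN at day 7, at background in both groups (0.07 to -1.45 with median scaling and -0.16 with probes averaged). Median scaling took the day 7 difference of ACTG2 from 2.28 to 1.53, and moved the median of all genes at day 7 from 0.09 to -0.12. It moved the share of calls that were higher from 66.3% to 32.6% at day 7, from 45.7% to 56.4% at day 15, from 46.2% to 56.5% for LSB3i day 15 against day 3 and from 49.3% to 59.6% for the difference of changes. Of all genes, 26 were called at day 3, and 224 with array weights, 16 with probes on 17 arrays, 142 without the A arrays of LSB3i, and 11 to 90 leaving out 1 array. The 323 calls at day 5 became 639 with array weights, 170 with the processed values, 494 without the A arrays and 200 to 368 leaving out 1 array. The processed values gave 798 calls at day 7 in place of 1938, 786 in place of 1664 at day 9, 1662 in place of 2927 at day 15, 1052 in place of 2282 for LSB day 15 against day 3, 2655 in place of 4267 for LSB3i and 1742 in place of 2640 for the difference of changes. Offset 50 gave 1182 at day 7, 1081 at day 9 and 1493 for LSB day 15 against day 3, and the day 7 groups alone gave 714. Of the 65 other genes, 2 were called at day 3 with array weights and 1 without the A arrays. At day 5, 4 were called with array weights, 5 without the A arrays and 1 to 3 leaving out 1 array. At day 7, 11 were called with offset 50, 5 with the day 7 groups alone and 10 to 23 leaving out 1 array. With letters as a replicate block, 30 of the 65 were called at day 15 in place of 29, and no count moved by over 1.5 times. The causes were not tested. Dim probes limit CNN1, POSTN and ACTG2, whose low readings lie at background.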

Other observations

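Markers of other tissues that share muscle actins gave values outside the comparisons above. At day 9, the troponin gene TNNT1 was at least 7.31-fold lower in LSB3i than in LSB (limma adjusted p = 7.1e-07), TNNI3 differed by -3.16 ± 0.49 (adjusted p = 2.3e-05), and MYL4, an embryonic and atrial myosin light chain, rose by 2.34 ± 0.62 (adjusted p = 0.0056). RGS5, a pericyte gene, was at least 2.52-fold higher at day 9 (adjusted p = 0.00038) and rose by 1.97 ± 0.44 at day 15 (adjusted p = 0.00061). It was the only 1 of 4 endothelial and pericyte genes tested that was called higher at day 15, beside 13.3% of all genes. NOTCH3 (-1.13 ± 0.26, adjusted p = 0.00083) and TEK (-1.03 ± 0.38, adjusted p = 0.028) were lower there. Of 8 epithelial genes tested, all 8 were called lower at day 15, beside 15.8% of all genes. Among them were the keratin KRT19 (at least 19.7-fold lower, adjusted p = 6e-13) and the cadherin CDH1 (at least 5.23-fold lower, adjusted p = 1.9e-05).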
